A study of Mus musculus with 9 samples.

Results

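The genes that move lactate across the plasma membrane and interconvert it with pyruvate were followed in 9 mouse lung squamous tumors. They are 7 of the 19481 genes in the table of counts and were taken by symbol. They comprise the monocarboxylate transporters *Slc16a1* (MCT1), *Slc16a3* (MCT4) and *Slc16a7* (MCT2), the membrane glycoproteins *Bsg* (basigin) and *Emb* (embigin), and the lactate dehydrogenase subunits *Ldha* and *Ldhb*. All 7 had enough reads to be tested, as did 14725 genes in all.

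Monocarboxylate transporters carry lactate together with a proton, so that export of lactate also acidifies the space around a cell. MCT1 and MCT4 need basigin to reach the cell surface, and embigin is the usual partner of MCT2. Lactate dehydrogenase is a tetramer of A and B subunits, in which A-rich forms are typical of glycolytic tissue and tumors and B-rich forms of tissue that oxidizes lactate.

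The tumors grew from KLN205, a murine lung squamous cell carcinoma line, under the skin of immunocompetent female DBA/2 wild-type mice aged 6 to 8 weeks at injection. The cells had been transduced and selected as a pool with a doxycycline-inducible SMARTvector shRNA, which was either a scrambled control (shControl) or 1 of 2 shRNAs against *Tmprss11b* (sh2 Tmprss11b and sh3 Tmprss11b). Mice of all 3 groups drank doxycycline from the time the tumors averaged 100 mm3, and tumors were taken on day 50, with 3 tumors per group labelled as biological replicates. TMPRSS11B is a membrane-anchored serine protease that the study connects to lactate export, and the comparison asks whether the RNA of the lactate genes differed once it was depleted. RNA came from pieces of whole tumor, so carcinoma and host cells were counted together, and fewer cells of a type and less RNA per cell cannot be told apart.

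The gene counts of a tumor summed to between 20653219 and 24047784, so that 3 counts, the level below which a gene cannot be told from 0, correspond to 0.125 to 0.145 CPM of these raw totals. This floor covers counting error only, and all other CPM values are counts scaled to a common library size by edgeR's TMM factors. The targeted gene, listed under its older symbol *Tmprss11bnl*, had 18, 51 and 42 counts in the shControl tumors, 7, 2 and 5 with sh2 and 10, 4 and 5 with sh3. All 6 shRNA tumors were thus below all 3 shControl tumors (exact two-sided permutation test, P = 0.012, the smallest that 6 against 3 allow), an order that 0.958% of the genes tested showed in that direction. Of the squamous markers *Krt14*, *Krt6a* and *Sfn* had at least 266 counts in every tumor, whereas *Krt5* had as few as 2 and *Dsc3* none in some tumors. Skeletal muscle RNA set some tumors apart, since the summed level of 6 muscle markers was 2863 CPM in shControl replicate 3, 962 CPM in sh3 replicate 1 and 3.46 to 330 CPM in the other 7 tumors.

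Per transcript length, the members spanned a wide range, and their order was the same in every tumor only at the top and at the bottom. *Ldha* was highest, at 1133 ± 277 TPM (a level per transcript length, SD over n = 9 tumors), above 99.4% of the genes tested. *Bsg* followed at 563 ± 110 TPM and exceeded 98.6% of genes. The transporter *Slc16a1* was at 50.3 ± 12.3 TPM and *Slc16a3* at 18.8 ± 3.88 TPM, with *Emb* between them at 37.3 ± 13.7 TPM. *Ldhb* was at 13.7 ± 6.22 TPM and *Slc16a7* lowest, at 2.92 ± 0.865 TPM, above only 16.6% of genes. In this order *Ldha* and *Bsg*, *Bsg* and *Slc16a1*, and *Ldhb* and *Slc16a7* had ranges that did not overlap over the 9 tumors. The other neighbours overlapped: *Slc16a1* exceeded *Emb* in 7 of 9 tumors, *Emb* exceeded *Slc16a3* in 8 and *Slc16a3* exceeded *Ldhb* in 6.

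**Figure D1:**
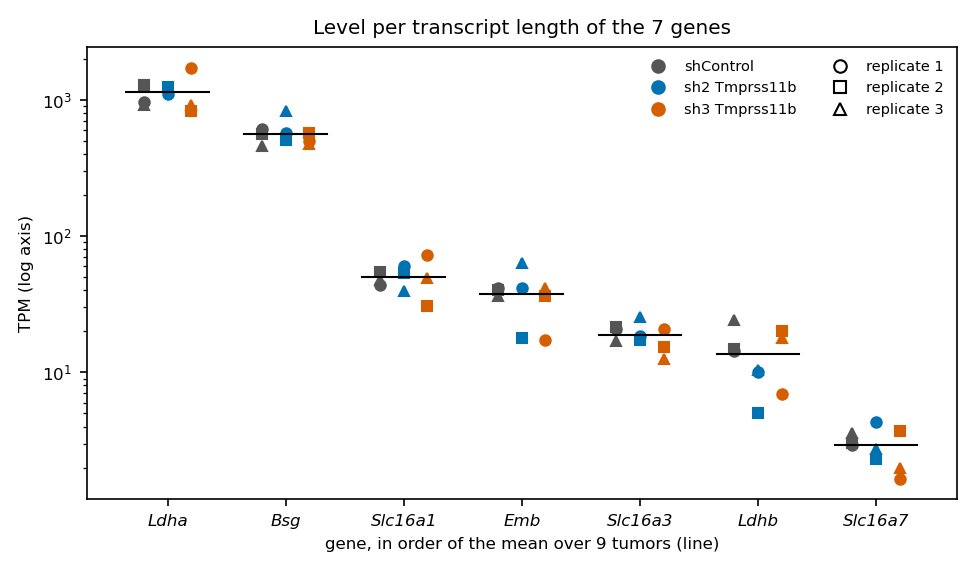
TPM on a log axis of the 7 genes in each of 9 tumors, ordered by the mean over all tumors (black line); colors give the group and symbols the replicate. *Ldha* and *Bsg* lie above the other 5 genes in every tumor, and *Slc16a7* lies lowest in every tumor.

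Of the TPM of the 3 transporters, *Slc16a1* held 58.2 to 77.4% (median 70.0%), *Slc16a3* 19.5 to 37.7% (median 24.8%) and *Slc16a7* 1.74 to 7.47% (median 4.06%). *Ldha* held 97.4 to 99.6% of the TPM of both subunits (median 98.9%). In each tumor the transporters that use basigin thus outweighed *Slc16a7*, and the A subunit outweighed the B subunit.

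Levels of the dehydrogenase genes carry an uncertainty that the other members do not share. The genome holds processed copies of both, and how reads that match several places were counted is not given in the sources used here. Of the 50-base windows along the longest coding transcript, 16.6% for *Ldha* occur also in at least 1 of 14 processed pseudogenes, and 27.0% for *Ldhb* in 1, *Gm5514*. The share was 0.192% for *Slc16a7* and 0 for *Slc16a1*, *Slc16a3*, *Bsg* and *Emb*. For comparison, *Gapdh*, an abundant glycolytic enzyme with 82.5% of its windows found in other genes, was at only 8.16 ± 1.26 CPM (SD, n = 3) in the shControl tumors. Other glycolytic genes with shared windows were high there, such as *Pkm* (34.4%) at 1725 ± 322 CPM, *Aldoa* (13.5%) at 913 ± 20.7 CPM and *Eno1* (72.2%) at 182 ± 43.9 CPM, so the shared part alone does not tell how far a level is off.

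No member passed the threshold in any comparison. By the quasi-likelihood test of edgeR, with Benjamini-Hochberg adjustment across the 14725 genes, 0 of 7 members had an FDR under 0.05 with sh2, with sh3, for the mean of both shRNAs against shControl or between the shRNAs, where 0% of all genes tested were called in each. At an unadjusted P under 0.05 there were 518, 976, 602 and 1057 genes in these comparisons, with no member among them. The targeted gene, *Tmprss11bnl*, was not called by the quasi-likelihood test either. Its log2 fold change was −2.89 with sh2 (FDR = 0.999, edgeR), −2.36 with sh3 (FDR = 0.753, edgeR) and −2.63 for the mean of both (FDR = 0.982, edgeR). A gene that this test does not call may thus still differ. DESeq2's Wald test called 2, 41, 9 and 48 genes and edgeR's likelihood ratio test 0, 8, 8 and 14, again without a member. Both of these tests called *Tmprss11bnl* for the mean of both shRNAs, and neither called it with sh2 or sh3 alone. With sh2, 6 of 7 members had a log2 fold change above 0, beside 51.8% of all genes, with sh3 3 of 7 beside 54.9%, and for the mean of both 3 of 7 beside 54.95%. Their median log2 fold change was 0.09 with sh2, −0.00 with sh3 and −0.00 for the mean of both, against 0.01, 0.03 and 0.02 over all genes.

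**Figure D2:**
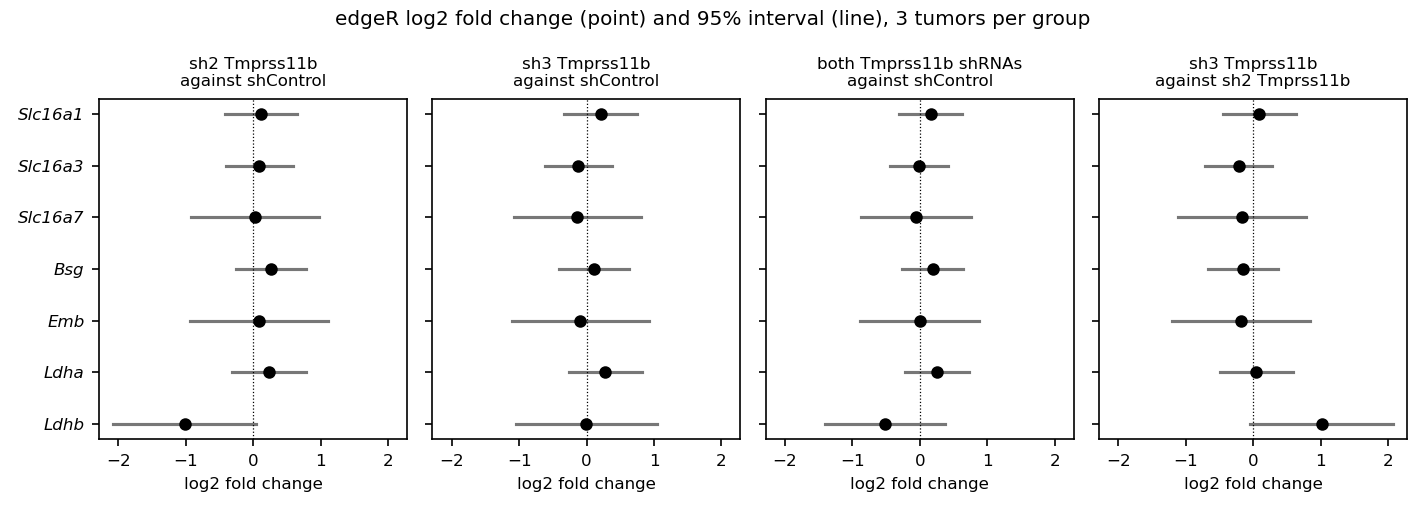
log2 fold change of the 7 genes (points) with its 95% interval (lines) in 4 edgeR comparisons with 3 tumors per group. Every interval includes 0, and *Ldhb* is farthest from it, at −1.02 with sh2 and 1.01 between the shRNAs.

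*Slc16a1* (chr3:104638668-104658462, GRCm38, plus strand) encodes MCT1, which can carry lactate both ways. It was at 83.7, 103 and 85.5 CPM in shControl replicates 1, 2 and 3, at 112, 107 and 75.5 CPM with sh2 and at 138, 73.0 and 104 CPM with sh3. The groups overlapped, with the highest and the lowest tumor both in the sh3 group. The log2 fold change was 0.11 with sh2 (standard error 0.24, FDR = 0.999, edgeR) and 0.21 with sh3 (standard error 0.24, FDR = 0.887, edgeR). For the mean of both it was 0.16, with a 95% interval of −0.31 to 0.63.

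*Slc16a3* (chr11:120948480-120960868, plus strand) encodes MCT4, the exporter of strongly glycolytic cells. Its level was 23.0, 23.7 and 17.6 CPM in the shControl tumors, 19.9, 20.2 and 28.5 CPM with sh2 and 22.7, 21.2 and 15.2 CPM with sh3. The spread within each group was wider than the distance between their means, and sh2 replicate 3 was highest. The log2 fold change was 0.09 with sh2 (standard error 0.22, FDR = 0.999, edgeR) and −0.12 with sh3 (standard error 0.22, FDR = 0.930, edgeR). The mean of both differed from shControl by −0.02, with a 95% interval of −0.44 to 0.41.

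*Slc16a7* (chr10:125219270-125389465, minus strand) encodes MCT2, a transporter of high affinity. It was counted 71, 75 and 86 times in the shControl tumors, 104, 53 and 69 times with sh2 and 37, 95 and 53 times with sh3. In CPM the shControl tumors were close together, at 3.02 to 3.52, while sh3 spanned 1.71 to 4.83 and so held both the lowest and the highest tumor. The mean of both shRNAs differed by a log2 fold change of −0.05 (standard error 0.36, 95% interval −0.87 to 0.76, FDR = 0.997, edgeR).

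**Figure D3:**
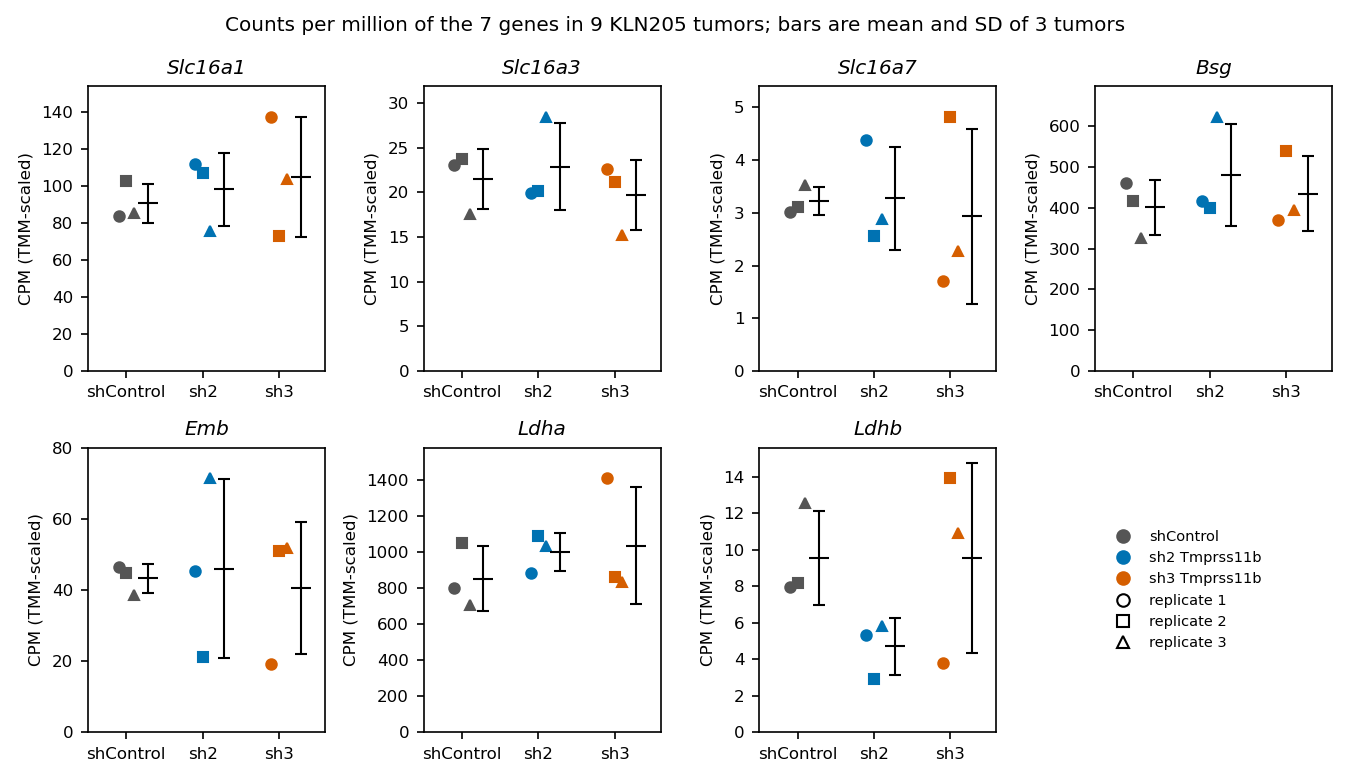
TMM-scaled CPM of each of the 7 genes in the 9 tumors, by group, with 1 symbol per replicate; the bars beside the points are the mean and SD of 3 tumors, and each axis starts at 0. The groups overlap for each gene except *Ldhb*, whose 3 sh2 tumors lie at 2.95 to 5.84 CPM, below the shControl tumors at 7.97 to 12.5 CPM.

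*Bsg* (chr10:79704491-79711969, plus strand) encodes the chaperone of MCT1 and MCT4. Its level was 460.4, 416 and 327 CPM with shControl, 418, 401 and 624 CPM with sh2 and 369, 540.4 and 394 CPM with sh3. The tumor with the highest *Bsg*, sh2 replicate 3, was also the one with the highest *Slc16a3*. The log2 fold change was 0.26 with sh2 (standard error 0.23, FDR = 0.999, edgeR) and 0.12 with sh3 (standard error 0.23, FDR = 0.940, edgeR), and 0.19 for the mean of both, with a 95% interval of −0.26 to 0.64.

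*Emb* (chr13:117208536-117274415, plus strand) encodes embigin, a relative of basigin. Here the shControl tumors were alike, at 46.5, 45.0 and 38.8 CPM, and the shRNA tumors were not, at 45.5, 21.3 and 71.6 CPM with sh2 and 19.3, 51.2 and 51.8 CPM with sh3. The coefficient of variation was 9.34% over the shControl tumors, 54.6% with sh2 and 45.6% with sh3, a difference in spread that was not tested. For the mean of both the log2 fold change was −0.00 (standard error 0.39, 95% interval −0.88 to 0.88, FDR = 1.00, edgeR). *Nptn* (neuroplastin), the other member of the basigin family, was even, at 158 to 204 CPM over the 9 tumors, and its log2 fold change was −0.00 (standard error 0.10, FDR = 1.00, edgeR) for the mean of both.

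*Ldha* (chr7:46841475-46855627, plus strand), the A subunit, was at 801, 1055 and 708 CPM with shControl, 886, 1091 and 1035 CPM with sh2 and 1413, 865 and 835 CPM with sh3. The highest tumor was sh3 replicate 1 and the lowest shControl replicate 3, and both shRNA groups overlapped shControl. The log2 fold change was 0.23 with sh2 (standard error 0.24, FDR = 0.999, edgeR) and 0.28 with sh3 (standard error 0.24, FDR = 0.841, edgeR). For the mean of both it was 0.26, with a 95% interval of −0.22 to 0.73. In that comparison a log2 change of 1 in either direction lay outside the interval of each member except *Ldhb*, whose interval was −1.40 to 0.38.

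*Ldhb* (chr6:142490249-142507957, minus strand), the B subunit, showed the largest differences of the 7 genes. It was counted 187, 198 and 306 times in the shControl tumors, 127, 61 and 140 times with sh2 and 82, 274 and 255 times with sh3. All sh2 tumors were below all shControl tumors, at 5.35, 2.95 and 5.84 against 7.97, 8.20 and 12.5 CPM, an order that 5.83% of the genes tested showed in that direction, so a single member in it is not a result about the family. The log2 fold change with sh2 was −1.02 (standard error 0.47, 95% interval −2.08 to 0.04, unadjusted P = 0.0572 and FDR = 0.999, edgeR), and the exact two-sided permutation test gave P = 0.1, the smallest that 3 against 3 allow. With sh3 the tumors were at 3.79, 13.9 and 10.9 CPM, on both sides of shControl, and the log2 fold change was −0.00 (standard error 0.46, FDR = 0.999, edgeR). The shRNAs differed from each other by 1.01 (sh3 above sh2, standard error 0.47, unadjusted P = 0.0582 and FDR = 0.673, edgeR), a value that was 0.64 without sh3 replicate 2 and 1.39 without sh3 replicate 1.

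Among tumors of the same group, *Emb* and *Ldhb* varied most. The SD of log2 CPM within groups was 0.70 for *Emb* and 0.68 for *Ldhb*, larger than for 86.6% and 85.8% of the genes tested. It was 0.49 for *Slc16a7*, larger than for 74.0% of genes. The other 4 members had 0.28 to 0.33, near the middle of all genes (47.7 to 57.1%). *Emb* and *Ldhb* were both lowest in sh2 replicate 2 and sh3 replicate 1, the tumors in which *Ldha* was highest and *Slc16a1* was above its mean. Over all 9 tumors Pearson's r of log2 CPM was 0.63 for *Emb* with *Ldhb* and −0.56 for *Emb* with *Ldha*. Without these 2 tumors it was −0.37 and 0.60, so both signs rest on them.

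**Figure D4:**
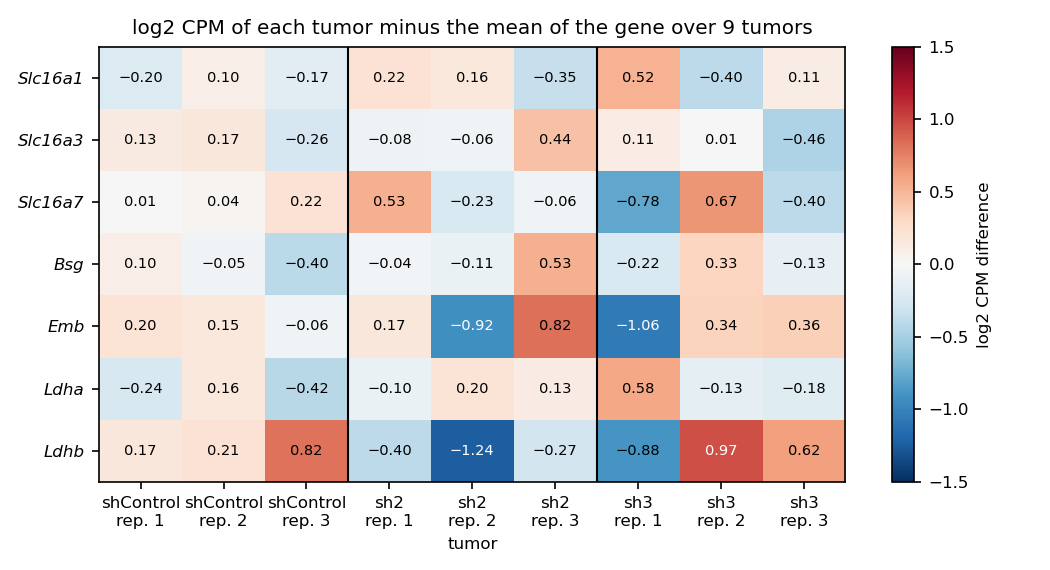
log2 CPM of each gene in each tumor minus the mean of that gene over the 9 tumors (red above, blue below; values printed in the cells); vertical lines separate shControl, sh2 and sh3. In sh3 replicate 1 *Slc16a1* and *Ldha* are 0.52 and 0.58 above their means while *Slc16a7*, *Emb* and *Ldhb* are 0.78, 1.06 and 0.88 below, and in sh3 replicate 2 the signs of these 5 genes are the opposite.

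Ratios within a tumor compare members without regard to the scaling between tumors, though they do not tell which member differs. The *Ldha* to *Ldhb* ratio on the log2 CPM scale was 6.48 ± 0.61 with shControl, 7.76 ± 0.63 with sh2 and 6.90 ± 1.40 with sh3 (SD, n = 3 each). Both shRNAs together exceeded shControl by 0.85 (exact two-sided permutation test, P = 0.262, adjusted over 4 ratios 0.476), and by 0.52 without shControl replicate 3. The *Slc16a3* to *Slc16a1* ratio differed by −0.16 (P = 0.631, adjusted 0.631, exact permutation test) and the ratio ranged from −2.76 in sh3 replicate 3 to −1.40 in sh2 replicate 3. For *Bsg* to *Emb* the difference was 0.33 (P = 0.357, adjusted 0.476, exact permutation test), with 4.23 in sh2 replicate 2 and 4.25 in sh3 replicate 1 and lower values in the other 7 tumors. *Slc16a3* to *Bsg*, the exporter against its chaperone, was the most even, at −4.22 ± 0.09 with shControl, −4.38 ± 0.07 with sh2 and −4.46 ± 0.38 with sh3, and differed by −0.20 (P = 0.226, adjusted 0.476, exact permutation test).

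Correlations of log2 CPM over the 9 tumors were computed for the 21 pairs of members, and none passed adjustment over the pairs (lowest adjusted P = 0.173 for Pearson's r and 0.339 for Spearman's rho, exact permutation tests). The strongest was *Ldha* with *Ldhb*, opposed at r = −0.75 (exact permutation P = 0.020, rho = −0.72, P = 0.037), and r was −0.63 without the 2 tumors farthest from the median of *Ldha*. *Slc16a1* with *Emb* had r = −0.72 (exact permutation P = 0.027, rho = −0.65, P = 0.067), and −0.60 without 2 tumors. *Slc16a3* with its chaperone *Bsg* had r = 0.66 (exact permutation P = 0.055, rho = 0.60, P = 0.097), and 0.47 without 2 tumors. *Slc16a1* with *Bsg* had r = −0.63 (exact permutation P = 0.066, rho = −0.62, P = 0.086) but −0.10 without 2 tumors, so that value rests on those tumors.

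The genes most like each member over the same 9 tumors were listed from the 13604 genes whose mean reached 1 CPM, as a description by Pearson's r. For *Slc16a1* they were *Pmpca* (0.98), *Ctps* (0.98) and *Stam2* (0.96), for *Slc16a3* *Slc45a3* (0.96), *Pgf* (0.95) and *Oit3* (0.92), and for *Slc16a7* *Kalrn* (0.97), *Rgl1* (0.96) and *Slc9a7* (0.96). *Bsg* went with *Alad* (0.95), *Dad1* (0.93) and *Wash* (0.92), and *Emb* with *Ccdc129* (0.98), *1700009P17Rik* (0.97) and *Scrn3* (0.96). *Ldha* went with *Sccpdh* (0.96), *Capn2* (0.95) and *Adm2* (0.94), and *Ldhb* with *Prune2* (0.98), *Cd300lh* (0.97) and *Myct1* (0.97). The number of genes with r over 0.9 was 143 for *Ldhb*, 70 for *Slc16a1*, 61 for *Emb*, 25 for *Slc16a7*, 22 for *Ldha*, 9 for *Bsg* and 5 for *Slc16a3*.

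The rest of the lactate and pyruvate pathway gave 0 genes past the threshold as well. Of 11 further SLC16 transporters 10 were in the table and 7 were tested, with a median log2 fold change of −0.39 for the mean of both shRNAs (0.02 over all genes) and 1 of 7 above 0. *Slc16a11*, a transporter of the same family, had 13, 15 and 16 counts in shControl, 4, 2 and 5 with sh2 and 8, 4 and 5 with sh3. All 6 shRNA tumors were below all shControl tumors, an order that 0.958% of the genes tested showed in that direction. Its log2 fold change was −1.55 (standard error 0.38, unadjusted P = 0.00248 and FDR = 0.982, edgeR), on counts near the floor. *Slc16a9*, also of few counts, had −1.27 (standard error 0.59, FDR = 0.982, edgeR). The sodium-coupled lactate carrier *Slc5a8* and the lactate receptor *Hcar1* together summed to at most 0.614 CPM in each tumor and were not tested.

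Of the 8 genes for entry of pyruvate into mitochondria, 2 were above 0 with sh2 (median −0.05), 7 with sh3 (median 0.24) and 6 for the mean of both (median 0.09). *Pcx* (pyruvate carboxylase) had −0.68 (standard error 0.21, FDR = 0.982, edgeR), at 14.3, 9.52 and 15.1 CPM with shControl and 6.86 to 10.1 CPM in the shRNA tumors, and *Mpc1*, a subunit of the mitochondrial pyruvate carrier, had 0.23 (standard error 0.57) at under 2 CPM. The 6 kinases and phosphatases of pyruvate dehydrogenase had a median of 0.02. *Pdk4* had −1.74 (standard error 0.86, FDR = 0.982, edgeR) and was highest in shControl replicate 3 at 13.5 CPM and sh3 replicate 1 at 7.17 CPM, the tumors with the most muscle RNA, and between 0.483 and 1.70 CPM in the others, and the part of muscle RNA in it was not tested. *Pdk2* had −0.41 (standard error 0.25). *Ldhd*, which acts on D-lactate, had −0.18 (standard error 0.38, FDR = 0.987, edgeR).

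Of 14 genes for glucose uptake and glycolysis, 13 were above 0 with sh2 (median 0.24, against 0.01 over all genes), 9 with sh3 (median 0.11, against 0.03) and 11 for the mean of both (median 0.15, against 0.02), again with 0 past the threshold. *Pgk1*, with 68.0% of its windows found in pseudogenes, had 0.36 (standard error 0.25) and the glucose transporter *Slc2a3* −0.43 (standard error 0.23) for the mean of both. Of the 10 hypoxia markers 6 were above 0 with sh2 (median 0.16), 4 with sh3 (median −0.17) and 5 for the mean of both (median 0.02), and those farthest from 0 were *Adm* at −0.61 (standard error 0.30) and *Ankrd37* at −0.34 (standard error 0.30).

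Members were also set against the mean log2 CPM of each list with at least 3 tested genes, which gave 105 relations over the 9 tumors, a step added after the values had been seen. Adjustment was made over the 105 relations for each coefficient apart, not over both coefficients together. The relation that passed it, by rho only, was that of *Ldhb* with 8 macrophage markers (rho = 0.95, exact permutation P = 0.000353, adjusted 0.0370). Pearson's r was 0.85 (exact permutation P = 0.00171, adjusted 0.0736), 0.88 without the 2 tumors farthest from the median of the list, and 0.94 with the group means removed. Other relations did not pass. *Ldha* with the glycolysis list had a positive correlation (r = 0.89, exact permutation P = 0.000581, adjusted 0.0611, rho = 0.88, adjusted 0.161), with 0.85 without 2 tumors. So did *Slc16a3* with the hypoxia list (r = 0.88, exact permutation P = 0.00281, adjusted 0.0736, rho = 0.77, adjusted 0.440), with 0.60 without 2 tumors. For *Ldha* with the hypoxia list r was 0.52 (exact permutation P = 0.146, adjusted 0.581) and rho was 0.72 (exact permutation P = 0.037, adjusted 0.440). *Ldhb* with the glycolysis list had a negative correlation (r = −0.86, exact permutation P = 0.00460, adjusted 0.0966, rho = −0.82, adjusted 0.377).

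**Figure D5:**
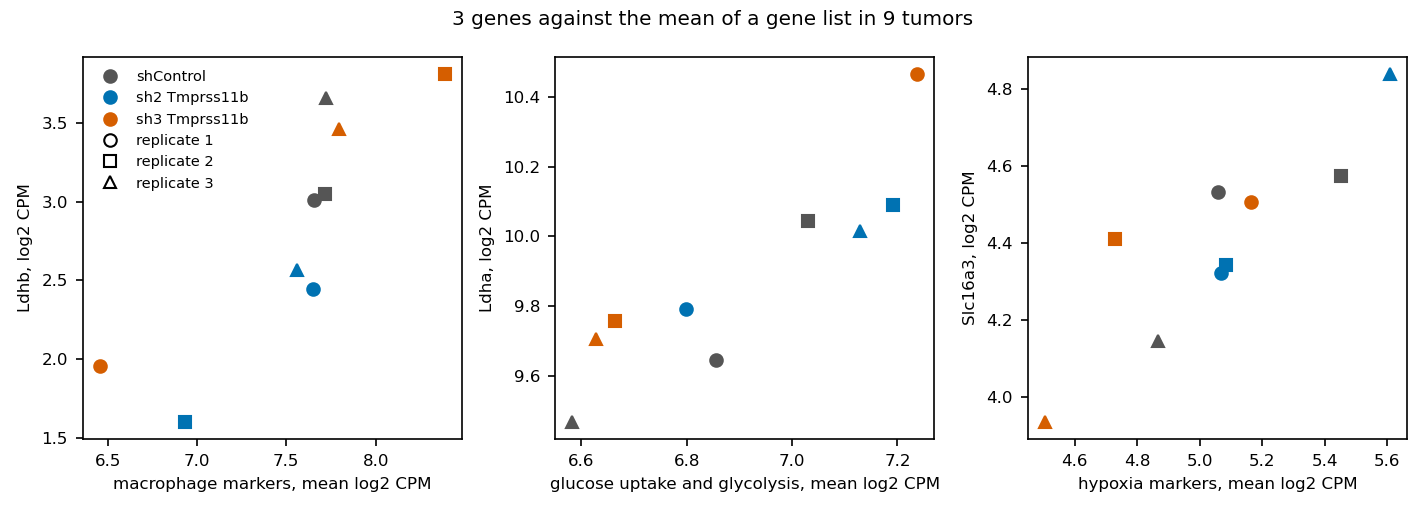
log2 CPM of *Ldhb*, *Ldha* and *Slc16a3* (vertical axes) against the mean log2 CPM of the macrophage, glycolysis and hypoxia lists (horizontal axes) in 9 tumors; colors give the group and symbols the replicate. Higher list means go with higher gene levels in all 3 panels, and sh3 replicates 1 and 2 lie at opposite ends for *Ldhb*.

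Neither *Ldhb* nor any of the 8 macrophage markers passed the threshold in a group comparison. The summed level of the markers was 2277 to 2435 CPM with shControl, 1319 to 2213 CPM with sh2 and 923 to 4359 CPM with sh3, so that the sh2 tumors lay below the shControl tumors for this sum as for *Ldhb*, the order that 5.83% of single genes showed. All 8 markers were counted in every tumor, and each had a correlation above 0 with *Ldhb*, from 0.28 for *Mrc1* to 0.89 for *Adgre1* (listed as *Emr1*). All 8 were highest in sh3 replicate 2, the tumor with the highest *Ldhb*, and 6 were lowest in sh3 replicate 1. With sh2, 1 of 8 had a log2 fold change above 0 (median −0.32) and 0 passed the threshold. The part of macrophage RNA in the *Ldhb* difference was not tested.

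The promoters of *Ldha*, *Slc16a1* and *Slc16a3* are shown because *Ldha* and *Slc16a3* are known as genes induced in low oxygen and *Slc16a1* is the other main transporter here. The 250 bases before the start site in RefSeq (GRCm38.p6) are given 5′ to 3′ on the strand of the gene. Capitals mark ACGTG, the core of a hypoxia response element, found on either strand. CACGTG, a motif bound by E-box factors, contains ACGTG on both strands and so counts as 2 matches.
Ldha, chr7:46845554-46845803: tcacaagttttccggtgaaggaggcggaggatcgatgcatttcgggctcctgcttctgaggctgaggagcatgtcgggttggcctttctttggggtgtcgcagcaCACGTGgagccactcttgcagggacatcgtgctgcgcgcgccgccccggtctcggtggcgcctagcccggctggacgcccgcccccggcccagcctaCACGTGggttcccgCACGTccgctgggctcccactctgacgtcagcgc
Slc16a1, chr3:104638414-104638663: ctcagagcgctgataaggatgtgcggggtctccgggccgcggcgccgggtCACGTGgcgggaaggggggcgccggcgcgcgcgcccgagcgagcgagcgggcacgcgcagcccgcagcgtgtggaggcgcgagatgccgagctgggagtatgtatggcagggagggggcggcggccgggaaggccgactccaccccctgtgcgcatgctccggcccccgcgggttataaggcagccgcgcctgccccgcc
Slc16a3, chr11:120948817-120949066: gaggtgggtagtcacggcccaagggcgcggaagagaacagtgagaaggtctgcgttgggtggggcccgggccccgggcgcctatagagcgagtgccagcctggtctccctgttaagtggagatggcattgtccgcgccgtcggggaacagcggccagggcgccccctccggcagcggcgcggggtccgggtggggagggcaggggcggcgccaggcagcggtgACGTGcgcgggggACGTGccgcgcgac

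*Ldha* held 5 matches, 4 of them in 2 CACGTG, *Slc16a1* held 2 in 1 CACGTG, and *Slc16a3* held 2 with no CACGTG. A second *Ldha* start (chr7:46846832-46847081) and the windows of *Ldhb* and *Emb* held none, and *Bsg* and *Slc16a7* had no entry in the promoter table. Of all 32851 promoters of this length 16.6% held ACGTG and 6.02% held CACGTG. These matches describe the letters of the windows and are not evidence of binding in these tumors.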

How the data were processed

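Total RNA of 9 tumors was sequenced as poly-A libraries with a stranded kit. The authors aligned reads with STAR 2.5.3a to mm10 and counted them with featureCounts, and the deposited table holds raw counts per gene. It also holds a deposited signal in CPM, which the authors scaled with edgeR, and TPM, which the authors divided by gene length. The annotation version, the strand setting and the handling of reads with several matches are not given in the sources used here. Another 10 columns hold the authors' fold changes, average CPM, likelihood ratios and P values for each shRNA and were not used.

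Counts were filtered with filterByExpr by group, scaled by TMM and fitted in 1 model of all 9 tumors with edgeR 4.0.16 (R 4.3.3), using the quasi-likelihood test and a Benjamini-Hochberg FDR of 0.05. log2 CPM values used a prior count of 2, so fold changes of low genes are understated on that scale. Exact permutation tests and correlations were computed with numpy 2.4.6, with ranks from scipy 1.17.1. Fits were tested on simulated data. DESeq2 1.42.0, the likelihood ratio test, other filters and scaling, only the groups compared, a replicate block and leaving out each tumor were alternatives.

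The members and lists were chosen with earlier results of these data known. Beside the members and *Tmprss11b*, the genes named were any past the threshold, the 2 of each pathway list with the largest absolute log2 fold change for the mean of both shRNAs, and the 3 most like each member. *Slc16a11* counts, the *Gapdh* level and the macrophage markers were taken up after values were seen. Same-numbered tumors did not deviate together (mean r −0.10 over 9 pairs), so numbers were not taken to pair them.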

Additional observations from a re-analysis of the deposited data

How the results depend on the processing

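Over 441 values of the members under the alternatives 0 passed the FDR threshold, 402 kept their direction and 39 reversed. DESeq2's Wald test moved the number of genes past the threshold to 2 with sh2, 41 with sh3, 9 for both averaged and 48 for sh3 against sh2, and the likelihood ratio test to 8, 8 and 14 in the last 3. The cause was not tested. Without a filter on low counts *Ldhb* with sh3 was 0.00083 and *Emb* for the mean of both 0.0028, both reversed and near 0. With the replicate number as a block *Emb* with sh2 was −0.0066, and the block changed no call. Each block held a tumor of every group, so the block could not change the differences of the ratios. These stayed at −0.16 for *Slc16a3* to *Slc16a1*, 0.85 for *Ldha* to *Ldhb*, 0.33 for *Bsg* to *Emb* and −0.20 for *Slc16a3* to *Bsg*.

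Leaving out 1 tumor at a time reversed 36 of these values. With sh2 the ranges were −0.37 to 0.44 for *Emb*, −0.0888 to 0.18 for *Slc16a3* and −0.24 to 0.18 for *Slc16a7*. With sh3 they were −0.0707 to 0.22 for *Bsg*, −0.33 to 0.25 for *Emb*, −0.0072 to 0.45 for *Ldha*, −0.38 to 0.38 for *Ldhb*, −0.0355 to 0.41 for *Slc16a1*, −0.26 to 0.0096 for *Slc16a3* and −0.69 to 0.14 for *Slc16a7*. For the mean of both they were −0.23 to 0.17 for *Emb*, −0.15 to 0.0616 for *Slc16a3* and −0.33 to 0.0827 for *Slc16a7*. Between the shRNAs they were −0.33 to 0.0636 for *Bsg*, −0.54 to 0.26 for *Emb*, −0.24 to 0.16 for *Ldha*, −0.15 to 0.30 for *Slc16a1* and −0.72 to 0.11 for *Slc16a7*. *Ldhb* with sh2 stayed between −1.19 and −0.77 (unadjusted P 0.00943 to 0.173, edgeR). Between the shRNAs *Ldhb* ranged from 0.64 without sh3 replicate 2 (unadjusted P = 0.222, edgeR) to 1.39 without sh3 replicate 1 (FDR = 0.157, the lowest of any member, edgeR). The 4 ratios kept their direction under every alternative run, though the block could not have changed it. Leaving out 1 tumor gave 0.52 to 1.13 for *Ldha* to *Ldhb*, −0.32 to −0.04 for *Slc16a3* to *Slc16a1*, 0.18 to 0.44 for *Bsg* to *Emb* and −0.28 to −0.15 for *Slc16a3* to *Bsg*. A fit of only the groups compared gives no value for the mean of both shRNAs. The intervals were widest for *Ldhb*, *Emb* and *Slc16a7*.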

Other observations

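Among the markers of other cell types, the neutrophil, T cell and erythroid lists had medians of opposite sign with the 2 shRNAs and the other 6 lists given here had medians of 1 sign, with 0 genes past the FDR threshold in edgeR's quasi-likelihood test. The median log2 fold change with sh2 and with sh3 was −0.70 and −0.72 for 7 squamous markers, 0.40 and −0.36 for 5 neutrophil markers, −0.51 and 0.56 for 5 T cell markers and 0.39 and 1.58 for 4 B cell markers. It was −0.41 and −1.18 for 6 fibroblast markers, −0.15 and −0.33 for 6 endothelial markers, −4.39 and −1.42 for 6 skeletal muscle markers, −1.47 and −4.55 for 4 adipocyte markers and 0.23 and −1.33 for 4 erythroid markers. The macrophage markers also had medians of opposite sign, −0.32 with sh2 and 0.07 with sh3. *Ldhb* also had a positive correlation with the T cell markers over the 9 tumors, which did not pass adjustment (r = 0.84, exact permutation P = 0.00263, adjusted 0.0736, rho = 0.77, adjusted 0.440), and r was 0.75 without the 2 tumors farthest from the median of that list.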
